A study of Rattus norvegicus with 10 samples.

Results

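The genes studied here encode the proteins of the cytosolic ribosome, measured with an Affymetrix rat genome array in the heart. The animals were Fischer-344 rats, an inbred strain in wide use for research on aging. They were taken as every gene whose only symbol in the platform annotation of a probe set begins with Rpl or Rps followed by a digit, or is Rplp0, Rplp1, Rplp2 or Rpsa. S6 kinase genes, pseudogenes and loci named as "-like" were left out, as was Rps19bp1. This gave 43 genes with 49 probe sets, out of 14217 named genes and 31042 probe sets, of which 29 belong to the large and 14 to the small subunit. The Old group held 5 arrays from rats aged 24 months and the Young group 5 arrays from rats aged 6 months. All rats were male and fed standard chow, and RNA came from the whole heart per the sample protocols, or from the ventricles per the series text. The study's stated interest was mitochondrial energy metabolism at both ages, not the ribosome. Nothing in the labels ties each array to its own animal. The p-values therefore reflect how far these arrays spread, and that spread may be technical.

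Each value is a log2 difference from the median of the 10 arrays, set to 0 for every probe set in the deposited table, with the log base taken as 2 because the labels do not state it. Such values show differences between arrays and no level, so one gene's abundance cannot be set against another's, and the heart label cannot be checked against the level of heart markers. Where every Old array lies above every Young array, the lowest Old and the highest Young value lie equally far from 0 by construction in a gene with 1 probe set. Array medians over all probe sets lay between -0.01 and 0.00 in Old hearts and between -0.01 and 0.01 in Young hearts. A gene is said to have risen or fallen where limma's adjusted p (Benjamini-Hochberg over all 14217 genes) was under 0.05. In bulk tissue, fewer cells of a type and less RNA per cell cannot be told apart.

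The cytosolic ribosome is the machine that translates nuclear messenger RNA. Its small subunit reads the message and its large subunit joins the amino acids, and each is built from ribosomal RNA and a set of proteins that cells make in matched amounts. Most messenger RNAs of vertebrate ribosomal proteins begin with a tract of pyrimidines, the terminal oligopyrimidine (TOP) tract, through which their translation is coupled to growth signals by mTOR and the RNA-binding protein Larp1. In striated muscle part of the ribosomes carry Rpl3l, a paralog made in heart and skeletal muscle, in place of the ubiquitous Rpl3.

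Ribosomal protein genes were higher in Old hearts, as small increases shared by most of the set. Of the 43 genes, 34 rose and 0 fell, where 6.77% of all genes rose and 5.09% fell. In the other direction, 0 of the 43 were lower by limma even at an unadjusted p under 0.05. A higher mean in Old hearts was found for 41 of the 43, against 48.2% of all genes. The median difference over the 43 genes was 0.28, or 1.22-fold, whereas over all genes it was -0.01, with 10% of all genes below -0.16 and 10% above 0.21. Among the 34 that rose, the differences ran from 0.22 (1.17-fold) for Rps29 to 0.62 (1.54-fold) for Rpl3. For 27 of the 43 genes every Old array lay above every Young array, against 5.13% of all genes, and for 0 of the 43 it lay below, against 4.78%.

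**Figure D1:**
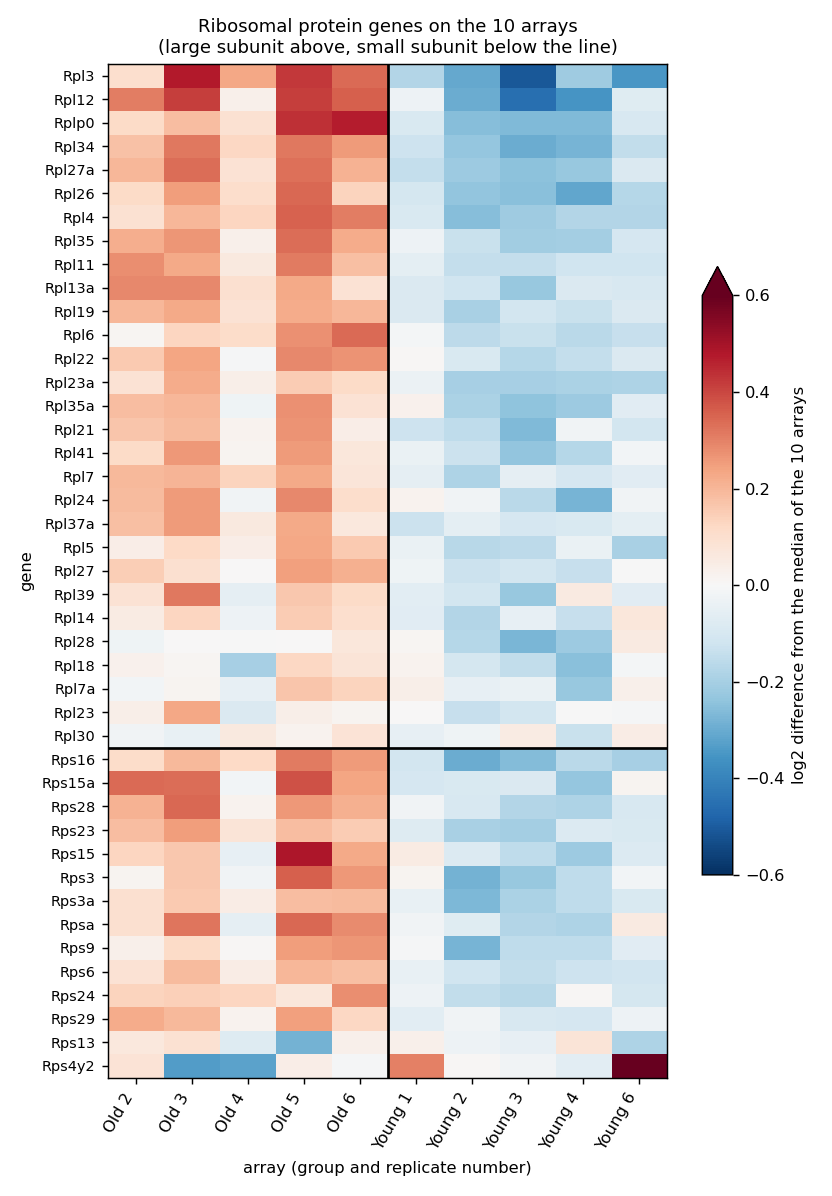
Log2 difference from the median of the 10 arrays (colour, red high and blue low) for 43 ribosomal protein genes (rows, large subunit above the line and small subunit below it, ordered by their difference between the ages) on the 5 Old and 5 Young arrays (columns). Most rows are red on Old 2, 3, 5 and 6 and blue on Young 2, 3 and 4, while Old 4 and Young 1 are pale, and Rps4y2 at the bottom has 0.76 on Young 6.

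The rise was not equal on all arrays. The mean over the 43 genes was 0.13 on Old 2, 0.19 on Old 3, 0.02 on Old 4, 0.24 on Old 5 and 0.18 on Old 6. On the Young arrays it was -0.04 on Young 1, -0.15 on Young 2, -0.18 on Young 3, -0.15 on Young 4 and -0.06 on Young 6. The ages did not overlap in this mean, and Old 4 and Young 1 lay closest to each other. Old 4 was the lowest Old array in 31 of the 43 genes, and Young 1 the highest Young array in 26. Counted gene by gene, between 28 and 42 of the 43 lay above their own median on an Old array and between 1 and 11 on a Young array. Over all genes the same share was 48.1% to 51.8% on Old arrays and 42.4% to 52.8% on Young arrays. The spread within groups was not unusual: the median residual SD was 0.10 for the 43 genes and 0.10 for all genes.

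Rpl3 changed most. It encodes a large subunit protein that reaches to the peptidyl transferase centre. Its values were 0.10, 0.47, 0.23, 0.42 and 0.34 on Old 2 to 6, against -0.18, -0.31, -0.51, -0.21 and -0.35 on Young 1, 2, 3, 4 and 6. Every Old array was above every Young array, and the difference was 0.62 ± 0.08 (SE, limma adjusted p = 0.00131, n = 5 per age). Both of its probe sets were higher, by 0.81 (adjusted p = 0.000677 over all probe sets) and by 0.44 (0.0151), the lower value coming from a probe set that may match related sequences.

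Its muscle paralog moved the opposite way. Rpl3l, which the selection leaves out as a "-like" locus, is described apart. On its single probe set it had -0.12, -0.80, -0.40, -0.48 and -0.64 in Old 2 to 6, against 0.21, 0.29, 0.22, 0.12 and 0.21 in Young 1, 2, 3, 4 and 6. All Old arrays lay below all Young arrays, with Old 2 nearest to them and a wider range in Old hearts (-0.80 to -0.12) than in Young hearts (0.12 to 0.29). The difference was -0.70 ± 0.10 (SE, adjusted p = 0.00210), which is 0.615 times the Young level. Old 3 had both the highest Rpl3 value and the lowest Rpl3l value of the 10 arrays, and Old 2 had the lowest Rpl3 and the highest Rpl3l value among the Old arrays. These directions held for both genes with each array left out in turn. For the cardiomyocyte markers described below, Old 3 had the lowest score of the 10 arrays, -0.32. Old 2 had the highest cardiomyocyte score among the Old arrays, 0.02. The part of cell makeup in the Rpl3 and Rpl3l differences was not tested.

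**Figure D2:**
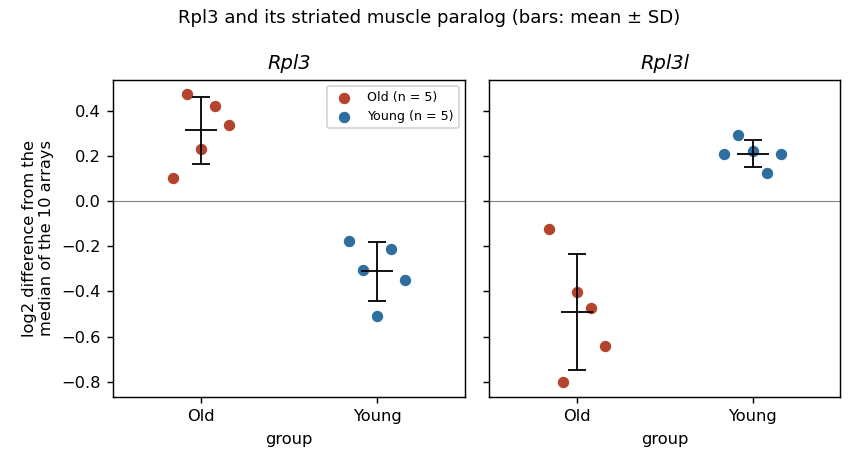
Log2 difference from the median of the 10 arrays for Rpl3 (left) and its striated muscle paralog Rpl3l (right), with 1 point per array, 5 Old and 5 Young, and bars for the mean ± SD. Rpl3 lies between 0.10 and 0.47 in Old hearts and between -0.51 and -0.18 in Young hearts, while Rpl3l lies between -0.80 and -0.12 in Old hearts and between 0.12 and 0.29 in Young hearts.

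The sequence around the annotated transcription start is shown for the 5 ribosomal protein genes of largest rise that have an entry in the RefSeq promoter table (build GRCr8), for Rps4y2, whose difference was the lowest, and for Rpl3l. Each line runs 5′ to 3′ on the gene's strand over 40 bases before the start and 25 after it. Capitals mark the longest unbroken run of C and T that touches the 20 bases on either side of the start.
Rpl3 (chr7:113507966-113508030, minus strand): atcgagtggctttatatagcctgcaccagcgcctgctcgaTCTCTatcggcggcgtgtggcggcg
Rpl12 (chr3:36661900-36661964, plus strand): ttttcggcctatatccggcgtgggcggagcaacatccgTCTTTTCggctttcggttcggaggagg
Rplp0 (chr12:46718366-46718430, minus strand): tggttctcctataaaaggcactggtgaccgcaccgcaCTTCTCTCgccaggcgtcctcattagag
Rpl34 (chr2:221962259-221962323, minus strand): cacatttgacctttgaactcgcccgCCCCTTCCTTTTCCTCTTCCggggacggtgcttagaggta
Rpl27a (chr1:172974533-172974597, plus strand): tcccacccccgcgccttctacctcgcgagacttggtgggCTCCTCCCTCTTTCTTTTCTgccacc
Rps4y2 (chr4:183000873-183000937, plus strand): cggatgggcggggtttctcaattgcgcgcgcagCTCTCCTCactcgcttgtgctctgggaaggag
Rpl3l (chr10:14258406-14258470, plus strand): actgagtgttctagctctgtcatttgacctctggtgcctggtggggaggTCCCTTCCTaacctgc

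The run was 20 bases long in Rpl34 and Rpl27a, 8 in Rplp0, 7 in Rpl12 and 5 in Rpl3. It touched or spanned the annotated start in these 5 genes. In Rps4y2 a run of 8 bases spanned the start, and in Rpl3l a run of 9 bases began at base 10 after the start. Of the 36 ribosomal protein genes with an entry, 27 had a run of at least 8 bases, against 20.9% of 27457 promoters in the table, and the median length was 11 against 5. Among the 28 of them that rose, 20 (71.4%) had such a run, with a median length of 11.5, against 75% of all 36. The share was thus no higher among the genes that rose. Runs in the genes with an entry that did not pass were 23 bases in Rpl39, 14 in Rpl14, 8 in Rps4y2 and 11 in Rpl28. They were 10 in Rpl23, 24 in Rpl7a, 7 in Rpl18 and 10 in Rps13. The annotated start may lie some bases from the start used in heart, and a run of C and T in this window is a description, not a tested TOP tract. Within the 300 bases of each entry, CCGGAAG, the core of ETS family sites, was found on either strand in 8 of the 36 (22.2%) and in 9.22% of all promoters. AAGATGG, part of the site of YY1, was found in 8 (22.2%) and in 7.30% of all promoters, and the E-box CACGTG in 3 (8.33%) and in 6.65%. CCGGAAG and AAGATGG can overlap in the letters AAG, and such cases were counted for both.

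In the stalk of the large subunit, which recruits translation factors, both measured members rose. Of all 43 ribosomal protein genes 34 (79.1%) rose, and of all named genes 6.77%. Rplp0, the base of the stalk and a common reference gene in RT-PCR, had 0.12, 0.18, 0.09, 0.44 and 0.47 in Old 2 to 6, against -0.09, -0.26, -0.26, -0.27 and -0.10 in Young 1, 2, 3, 4 and 6. Old 5 and Old 6 stood above the other Old arrays, and the ages did not overlap (0.45 ± 0.08 SE, adjusted p = 0.00533). Rpl12, which anchors the stalk beside it, had 0.31, 0.41, 0.03, 0.42 and 0.36 in Old hearts, against -0.03, -0.30, -0.45, -0.36 and -0.07 in Young hearts. Its difference was 0.55 ± 0.09 (SE, adjusted p = 0.00476), with Old 4 and Young 1 close together near 0. A probe set that lists Rplp1 together with other loci, and so is not counted among the 43, was higher by 0.30 (adjusted p = 0.0117 over all probe sets).

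The pair that carries the 5S ribosomal RNA also rose, as did 34 of all 43 genes and 6.77% of all named genes. Rpl11, which with Rpl5 can bind Mdm2 and so stabilize p53 when ribosome assembly fails, had 0.28, 0.23, 0.06, 0.31 and 0.18 in Old hearts, against -0.06, -0.14, -0.14, -0.12 and -0.12 in Young hearts. Its difference was 0.33 ± 0.05 (SE, adjusted p = 0.00325). That of Rpl5 was 0.24 ± 0.05 (SE, adjusted p = 0.0151, and 0.0676 without Old 3 and 6). The ages did not overlap in either gene.

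At the tunnel through which the new protein leaves the ribosome, 6 of 7 measured members rose, of 9 listed. This is set beside 79.1% of all 43 genes and 6.77% of all named genes. Rpl26 (0.40 ± 0.06 SE, adjusted p = 0.00231), Rpl4 (0.40 ± 0.06 SE, 0.00231) and Rpl19 (0.31 ± 0.04 SE, 0.00210) had the smallest p. Rpl35 and Rpl23a, at the mouth of the tunnel where the signal recognition particle docks, rose by 0.35 and 0.28. Rpl22 rose by 0.29, with Old 4 just below Young 1 (adjusted p = 0.0121, and 0.0665 without Old 3 and 6). Rpl39 had a difference of 0.21 that did not pass (adjusted p = 0.0752) and passed without Old 4, which made 7 of 7. Of the remaining large subunit genes, Rpl34 (0.45 ± 0.06 SE, adjusted p = 0.00111) had the smallest p of all 43, and Rpl27a (0.42 ± 0.06 SE) and Rpl13a (0.32 ± 0.06 SE) followed. Rpl13a, which also serves the interferon-gamma response as a translation silencer, had 0.29, 0.29, 0.10, 0.23 and 0.09 in Old 2 to 6. Its Young values were -0.09, -0.12, -0.23, -0.09 and -0.10.

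In the small subunit 12 of 14 genes rose, with a median difference of 0.28, and 22 of 29 did in the large subunit, with a median of 0.28. Over all 43 genes the share was 79.1%, and over all named genes 6.77%. Only 5 of 14 proteins listed for the head had a probe set of their own. For the body and platform it was 8 of 17. In the head, which the message and the transfer RNAs pass on their way through, all 5 measured members rose, led by Rps16 (0.40 ± 0.06 SE, adjusted p = 0.00166) and Rps28 (0.32 ± 0.06 SE, 0.00654). Rps16 had 0.11, 0.20, 0.12, 0.31 and 0.26 in Old hearts, against -0.11, -0.30, -0.26, -0.16 and -0.20 in Young hearts. In the body and platform 7 of 8 rose, among them Rps23 (0.30 ± 0.05 SE, adjusted p = 0.00316), which lies at the decoding centre, and Rps15a (0.35 ± 0.08 SE, 0.0114, and 0.0503 without Old 3 and 6). Rps6, the substrate of the S6 kinases, had 0.09, 0.19, 0.04, 0.20 and 0.18 in Old hearts, against -0.04, -0.12, -0.15, -0.12 and -0.11 in Young hearts (0.25 ± 0.05 SE, adjusted p = 0.00613). Rpsa, which is also known as the laminin receptor precursor, rose by 0.28 ± 0.08 (SE, adjusted p = 0.0434), with Old 4 at -0.06 below Young 6 at 0.05. Rack1, a signalling scaffold bound to the small subunit whose symbol falls outside the selection, rose by 0.26 (adjusted p = 0.0160, and 0.0767 without Old 3 and 6).

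Averaged over arrays, the large subunit mean was higher in Old hearts by 0.29 and the small subunit mean by 0.23, or by 0.27 without Rps4y2. The difference between the subunits was not tested. The large minus the small subunit mean was between -0.02 and 0.04 on Old arrays and between -0.06 and -0.02 on Young arrays. Without Rps4y2, whose Young values spread widely, it was between -0.04 and 0.02 on Old arrays and between -0.04 and 0.00 on Young arrays. In the small subunit the count of 12 became 8 without Young 2, 3 or 4 or without Old 5 or 6, and 5 without Old 3 and 6 together. The head then had 3 of 5 genes risen without Young 2, 3 or 4 or Old 3, 5 or 6, and 2 without Old 3 and 6 together.

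**Figure D3:**
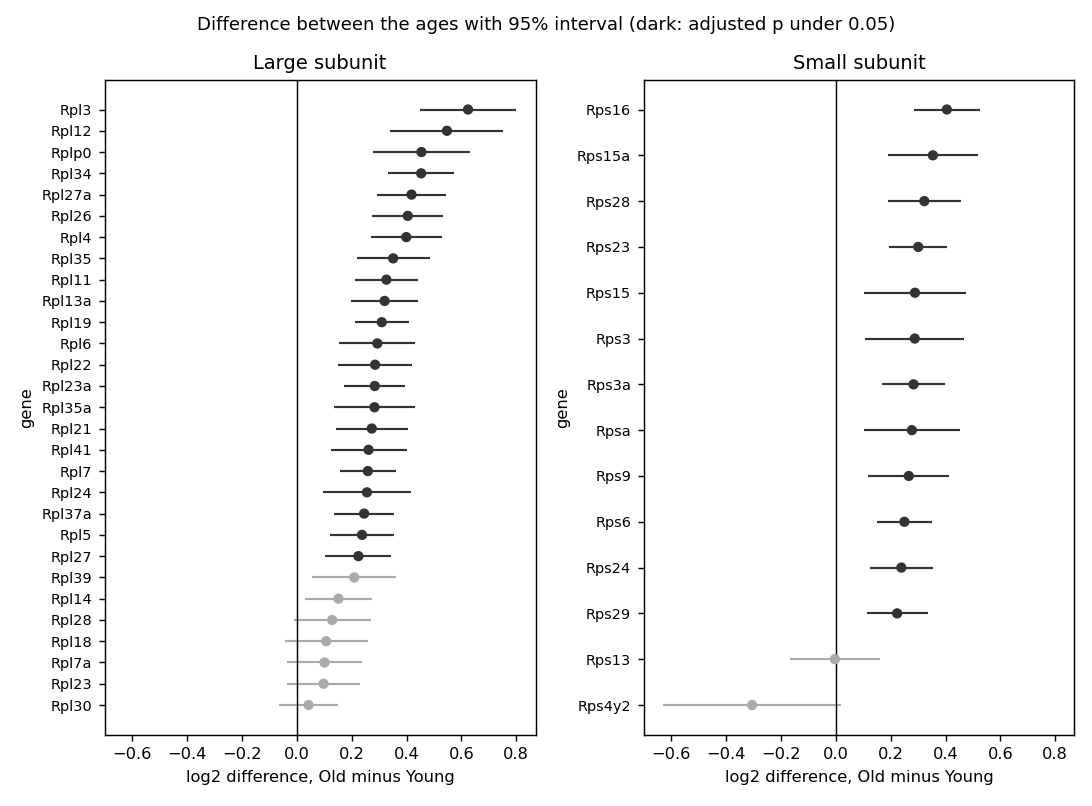
Log2 difference, Old minus Young, with its 95% interval from limma for the 29 large subunit genes (left) and the 14 small subunit genes (right), dark where the adjusted p was under 0.05 (22 and 12 genes). Most points lie between 0.2 and 0.4, Rpl3 is the highest at 0.62, and the interval of Rps4y2 runs from -0.63 to 0.02.

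The other 9 genes did not pass. Rps4y2, whose symbol marks a copy of Rps4 and which is placed on chromosome 4 in the RefSeq table, gave the largest negative difference, -0.31 ± 0.15 (SE, adjusted p = 0.218). Its values were 0.08, -0.33, -0.32, 0.04 and -0.01 in Old 2 to 6, against 0.30, 0.01, -0.02, -0.06 and 0.76 in Young 1, 2, 3, 4 and 6, with overlap between the ages. Rps13 (-0.00 ± 0.08 SE, adjusted p = 0.983) and Rpl30 (0.04 ± 0.05 SE, 0.641) were nearest to 0. Differences between 0.10 and 0.21 were found for Rpl23, Rpl7a, Rpl18, Rpl28, Rpl14 and Rpl39. For Rpl28, Rpl30 and Rps13, other probe sets that list the gene beside pseudogenes or related loci gave more than their own single-symbol probe set did. Those for Rpl28 and Rpl30 were higher by 0.26 (adjusted p = 0.0355 over all probe sets) and by 0.25 (0.00940), and that for Rps13 by 0.19 (0.128). For Rpl30 a further probe set that also lists Rps10 gave 0.27. The 2 probe sets of Rpl14 gave 0.06 and 0.25.

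The platform holds 33 further probe sets that list a ribosomal protein gene together with pseudogenes or related loci. Of these, 29 list only ribosomal protein genes outside the 43, and the others list Rpl28, Rpl30 or Rps13. Together they cover 27 genes not among the 43. Since these probe sets may pick up several transcripts, they are assigned to no single gene here. All 33 had a higher mean in Old hearts, and 22 (20 of the 29) passed over all 31042 probe sets, of which 4.42% rose. Their median difference was 0.30. The highest was the one that lists Rps12 (0.57 ± 0.07 SE, adjusted p = 0.00102), with 0.16, 0.32, 0.17, 0.46 and 0.23 in Old hearts against -0.22, -0.41, -0.41, -0.33 and -0.16 in Young hearts. One of the 2 that list Rps2 was the lowest, at 0.01. Processed pseudogenes are common for this family, so the single-symbol probe sets of the 43 genes may share sequence with copies elsewhere as well.

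Among the 5 measured "-like" genes, Rpl3l fell and Rps27l, a p53 target close in sequence to Rps27, rose by 0.27 ± 0.06 (SE, adjusted p = 0.0110, and 0.0542 without Old 3 and 6). Rpl26l1 (0.15, adjusted p = 0.182), Rpl7l1 (0.04, 0.711) and Rpl39l1 (0.02, 0.903) did not pass. The 2 probe sets of Rpl7l1 were averaged.

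Calls near the threshold depended on single arrays. Between 26 and 35 genes rose when 1 array was left out, and 26 of the 34 did so whichever array was left out. The 8 others were Rpl35a, Rpl41, Rpl27, Rps9, Rpl24, Rps3, Rpsa and Rps15. Rpl41 did not pass without Young 3 or Old 5 (0.0576 and 0.0590), Rpl35a without Young 2 or 3 or Old 5 (0.0527 to 0.0577), and Rpl27 without Young 2 or 3 or Old 5 or 6 (0.0562 to 0.0621). Rps9 was lost without Young 2, 3 or 4 or Old 5 or 6 (0.0507 to 0.0695), and Rps3 without these or Old 3 (0.0618 to 0.102). For Rpsa the arrays were Young 1, 2, 3 or 4 and Old 3, 5 or 6 (0.0581 to 0.109). Rpl24 and Rps15 passed with all arrays, without Young 1 or without Old 4, but not without any 1 other array (0.0526 to 0.108). Over all genes, the 1686 calls became 1047 without Young 2, 988 without Young 3, 1003 without Old 5 and 1089 without Old 6.

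Some cell type markers also passed the test between the ages on the same arrays. Over all genes, 6.77% rose, 5.09% fell and 48.2% had a higher mean in Old hearts. Of 10 macrophage markers 4 rose and 10 had higher means, and the list score, the mean over markers of each value minus its mean over the 10 arrays, lay between -0.09 and 0.98 in Old hearts and between -0.52 and -0.10 in Young hearts. Of 8 fibroblast markers 5 rose and 8 had higher means. Their scores were -0.07 to 0.43 in Old hearts and -0.35 to -0.03 in Young hearts. Of 11 lymphocyte markers 1 rose and only 7 had higher means. The list scores were -0.10 to 0.76 in Old hearts and -0.42 to -0.11 in Young hearts. Of 9 cardiomyocyte markers 3 fell and 0 had a higher mean, with scores of -0.32 to 0.02 in Old hearts and 0.09 to 0.31 in Young hearts. The table cannot show which markers are at 0. Higher means were also found for 4 of 5 endothelial markers (2 rose, with scores of -0.07 to 0.31 in Old hearts and -0.21 to -0.06 in Young hearts) and for 6 of 6 cycling cell markers (1 rose, with scores of -0.12 to 0.54 in Old hearts and -0.25 to -0.05 in Young hearts). Of 7 smooth muscle markers 1 fell and 4 had higher means, as had 3 of 3 erythroid and 1 of 5 adipocyte markers. Smooth muscle (-0.14 to 0.08 in Old hearts and -0.16 to 0.17 in Young hearts), erythroid (-0.53 to 0.94 in Old hearts and -0.38 to 0.32 in Young hearts) and adipocyte scores (-0.15 to 0.02 in Old hearts and -0.24 to 1.09 in Young hearts) overlapped. The fibroblast, endothelial and cycling cell scores overlapped between the ages as well, and those of macrophages, lymphocytes and cardiomyocytes did not. Old 4, with a mean of 0.02 over the 43 ribosomal protein genes, had macrophage and fibroblast scores of 0.33 and 0.30. Old 3, with a mean of 0.19, had -0.09 and -0.07 and the highest lymphocyte score, 0.76. Old 2, with a mean of 0.13, had a macrophage score of -0.07, a fibroblast score of 0.01 and a lymphocyte score of -0.03. Old 5, with a mean of 0.24, had a macrophage score of 0.60 and a fibroblast score of 0.43, and Old 6, with a mean of 0.18, had 0.98 and 0.35. The endothelial score was 0.29, 0.31 and 0.30 on Old 2, 3 and 6, against -0.02 on Old 4 and -0.07 on Old 5. The cardiomyocyte score was 0.02, -0.32, -0.13, -0.27 and -0.22 on Old 2 to 6. On Young 1, 2, 3, 4 and 6 it was 0.09, 0.17, 0.23, 0.31 and 0.12. Young 1, with the highest Young ribosomal protein mean (-0.04), also had the highest Young macrophage and fibroblast scores, -0.10 and -0.03. Young 6, with a mean of -0.06, had -0.42 and -0.23, and Young 4, with a mean of -0.15, had -0.25 and -0.12. The part of cell makeup in the rise of the ribosomal protein genes was not tested. Without Old 3 and Old 6, the arrays of highest lymphocyte score, 21 genes rose, 0 fell, and the median difference was 0.25. The lymphocyte scores of Old 2, 4 and 5, which remained, were -0.03, -0.10 and 0.10, still above those of all Young arrays. Cell makeup was therefore not tested by leaving out these arrays.

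**Figure D4:**
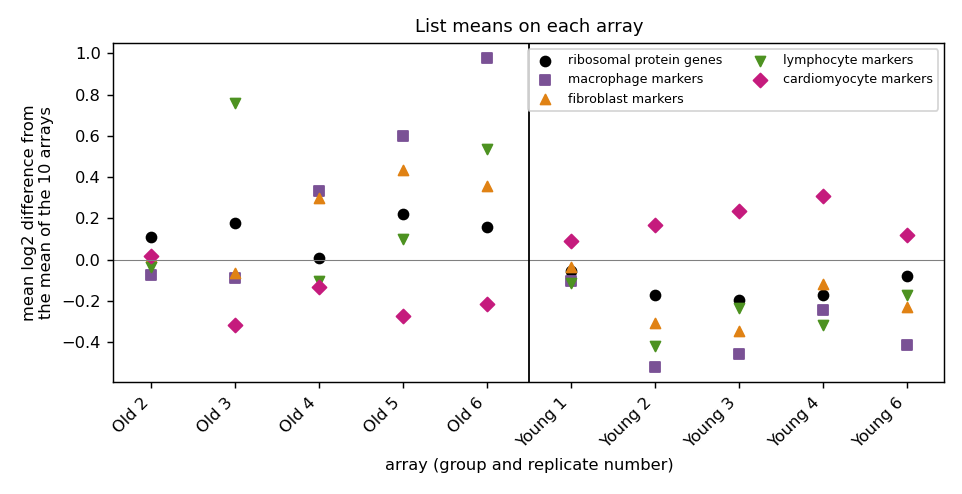
Mean log2 difference from the mean of the 10 arrays for the 43 ribosomal protein genes (circles) and 4 lists of cell type markers on the 5 Old and 5 Young arrays. The ribosomal protein mean is above 0 on all Old arrays and below 0 on all Young arrays, while the macrophage score ranges from -0.09 to 0.98 among the Old arrays.

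Genes that act with the ribosomal proteins were counted in lists chosen with earlier results of these data known. Of 10 measured genes whose transcripts are also known to carry a TOP tract, 4 rose and 0 fell (0 also at an unadjusted p under 0.05), with a median difference of 0.12. Over all genes, 6.77% rose and 5.09% fell. Those of the list that rose were the elongation factor genes Eef1a1 (0.62 ± 0.08 SE, adjusted p = 0.00159) and Eef1b2 (0.38 ± 0.07 SE, 0.00498), the nascent chain factor gene Naca (0.47 ± 0.07 SE, 0.00268) and the initiation factor gene Eif3f (0.28, 0.0243). The call of Eif3f was lost without Young 2, 3 or 4 or Old 5 or 6 (0.0544 to 0.0652). Eef2, which moves the ribosome along the message, was not among them (0.07 ± 0.06 SE, adjusted p = 0.506).

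In the list of ribosome assembly factors and RNA polymerase I, 3 of 39 genes rose and 1 fell, a share near the 6.77% and 5.09% of all genes. Polr1d (0.22, adjusted p = 0.0280), Gar1 (0.35, 0.0325) and Gnl3 (0.23, 0.0470) rose, and Polr1a, the largest subunit of the polymerase, fell (-0.17, 0.0344). The median difference over the 39 genes was 0.07, and 25 of 39 had a higher mean in Old hearts, against 48.2% of all genes. At an unadjusted p under 0.05 by limma, 8 (20.5%) were higher and 2 (5.13%) lower, against 14.3% and 12.0% of all genes. The list had 0 calls without Young 2 or 3 or Old 5 or 6, 5 risen and 0 fallen without Young 1, and 4 and 0 without Old 2. Polr1d was lost without Young 2, 3 or 4 or Old 5 or 6 (0.0570 to 0.0738), and Gar1 without these or Young 6 (0.0517 to 0.0788). Gnl3 was lost without any 1 array but Young 1 or Old 2 (0.0646 to 0.114), and Polr1a without any 1 but Young 4 or 6 or Old 4 (0.0502 to 0.0902).

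Of 17 measured genes of mTOR, S6 kinase, Larp1 and Myc control, 0 passed by limma. At an unadjusted p under 0.05, 2 (11.8%) were higher and 4 (23.5%) lower, against 14.3% and 12.0% of all genes. The smallest p were those of Tsc1 (-0.16, adjusted p = 0.0526), Rps6kb1, which encodes S6 kinase (-0.19, 0.0853), and Mtor (-0.18, 0.115). Rps6kb1 passed as lower without Old 2 (0.0295) and Mtor without Young 6 (0.0489), and 1 gene passed as higher without Young 1.

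The proteins of the mitochondrial ribosome, a separate machine that translates the few messages of mitochondrial DNA, were mostly lower in their means. Of 73 measured genes, 15 (20.5%) fell and 0 rose by limma, where 5.09% of all genes fell and 6.77% rose. At an unadjusted p under 0.05, 27 (37.0%) were lower and 3 (4.11%) higher, against 12.0% and 14.3% of all genes. A higher mean in Old hearts was found for 17, against 48.2% of all genes, and the median difference was -0.11. Mrpl2 (-0.49), Mrps31 (-0.29) and Mrps35 (-0.41) had the smallest p. Without Young 2 or 3 the count of fallen genes was 8 or 9, and 2 rose without Young 1. For fallen genes, the count was 10 without Old 5, 23 without Old 2 and 6 without Old 3 and 6 together. The mean of the mitochondrial list and that of the 43 cytosolic genes did not follow each other on all arrays: Old 2 had 0.09 for the mitochondrial and 0.11 for the cytosolic genes, and Old 3 had -0.20 and 0.18, each relative to the mean of the 10 arrays. The difference between the 2 families was not tested.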

How the data were processed

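The values are those of the authors' deposited table, taken as log2 and centred on each probe set's median over the 10 arrays. Per the labels' protocols, RNA was amplified in an Affymetrix cDNA kit and hybridized as biotinylated cRNA. The normalization was not given in the sources used here. Depth does not apply to arrays, whose number limits the precision. Of 31042 probe sets, 20826 had 1 gene symbol, 436 several and 9780 none, and 20758 matched RefSeq (GRCr8, for names) by identifier. Probe sets of a gene were averaged, giving 14217 genes. The difference Old minus Young was fitted with lmFit and eBayes of limma 3.58.1 in R 4.3.3, tested on simulated data, with Benjamini-Hochberg adjustment over all genes and, apart, over all probe sets. Tables and plots were made with Python 3.11.15, pandas 2.3.3 and matplotlib 3.10.9. Members and lists were chosen with earlier results of these data known.

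Genes named were up to 14 with the smallest p in each direction, the stalk and 5S genes, Rps6, Rpsa, the 3 highest and 3 lowest other differences, genes whose probe sets disagreed, the "-like" genes and up to 3 per list. Others, such as Eef2, Rps29 and the genes near the threshold, were named after their values were seen. Alternatives were other array scalings, array weights, probe set rules, a block, another moderation and leaving out arrays. The replicate numbers in the titles were not taken as pairs.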

Additional observations from a re-analysis of the deposited data

Results flagged for a closer look

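Within a group of 5 arrays, 1 value stood apart from the other 4 in 6 of 62 groups examined, where chance flags about 1 in 20. Young 1 was the highest Young array for Rpl11 (-0.0565, the others -0.143 to -0.120), Rpl23a (-0.0344, the others -0.201 to -0.186) and Rpl6 (-0.0127, the others -0.161 to -0.135). Old 4 was the lowest Old array for Rpl12 (0.0295, the others 0.306 to 0.417) and Rpl19 (0.0882, the others 0.198 to 0.228). Young 3 was the lowest Young array for Rpl13a (-0.225, the others -0.119 to -0.0853). All 6 genes rose whichever array was left out.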

How the results depend on the processing

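With 1 array left out, between 26 and 35 ribosomal protein genes rose, 0 fell, 18 to 23 large and 8 to 12 small subunit genes passed, and the medians ran from 0.24 to 0.31 for all 43, 0.25 to 0.31 for the large and 0.24 to 0.31 for the small subunit. Calls over all genes then ran from 988 to 1994, against 1686. Leaving out Old 3 and 6 together and adding the several-symbol probe sets were chosen after seeing the data. Without Old 3 and 6, 21 genes rose, 5 small subunit genes passed, and 1012 of all genes passed. With the several-symbol probe sets counted as genes of their own, so that some genes counted more than once, 58 rose, 36 large and 22 small. With the "-like" genes and Rack1 counted as members, 1 fell, Rpl3l. In the fit with the replicate number as a block, 25 ribosomal protein genes rose and 1069 of all genes passed. Young 1 and Old 5 have no array of the same number in the other group, so they added nothing to the age difference in that fit. Arrays of the same number had correlations of their deviations between 0.03 and 0.15, and arrays of different number between -0.18 and 0.24. Whether a shared number stands for a batch or a pair cannot be told from these few correlations. Array weights gave 34 and, over all genes, 2239. Centring each array and quantile normalization both gave 34 and left the medians at 0.29 and 0.27. Of the 28 ribosomal protein and "-like" genes recomputed under each alternative, Rps13 and Rpl39l1, both near 0, changed sign. Rps13 gave 0.00259 with each array centred, 0.00390 with quantile normalization, 0.0739 with the block, and -0.0424 to 0.0583 with 1 array left out (above 0 without Young 1 or 4 or Old 4 or 5). Rpl39l1 gave -0.00275 with the block, -0.0376 without Old 3 and 6, and -0.0243 to 0.0668 with 1 array left out (below 0 without Young 1 or 6 or Old 3). The cause was not tested. With trend and robust moderation 31 rose, without Rps15, Rps29 and Rpsa. The block lost Rpl21, Rpl24, Rpl27, Rpl37a, Rpl41, Rpl5 (0.0832), Rpl7, Rps29 and Rpsa (0.0888). Without the probe sets that may match several transcripts Rpsa did not pass (0.185).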
